A study of Mus musculus with 4 samples.

Results

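The genes described here mark or serve the macrophages of the liver: Cd14, Marco, Clec4f, Adgre1, Cd68, Csf1r, Cd5l, Vsig4, Chil3 and Timd4. They were taken by name, and a gene's value was the mean of the probe sets that the platform annotation assigns to it alone. Of the 10 genes, 9 were measured, by 11 probe sets, among 10923 genes in all. Timd4, which encodes a receptor for phosphatidylserine on resident macrophages, had no such probe set among those with deposited values and is not analysed here. Kupffer cells are the resident macrophages of the liver sinusoids. They take up bacteria, dead cells and complement-coated particles from portal blood, and they release cytokines that act on hepatocytes after partial hepatectomy, when hepatocytes leave quiescence and divide. Blood monocytes can also enter the liver and become macrophages, and the genes above differ in how far they mark resident cells, newly arrived cells or an activated state.

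Livers came from male C57BL6/J mice aged 6 to 13 weeks. All mice received a single injection of siRNA carried by Invivofectamine 3.0, a lipid reagent, then lost 40% of the liver 3 days later, and livers were taken 48 hours after that operation. The control group, siControl, had 2 arrays from mice given a control siRNA, and the siOrm group had 2 arrays from mice given an siRNA against Orm1, which encodes the acute phase protein orosomucoid. The titles of these arrays, siOrm1 and siOrm2, may number replicates or name 2 target genes; the source names give them 1 group. All groups therefore share the siRNA carrier and the hepatectomy, and there was no unoperated liver. The labels do not tell how many mice an array represents, so the p-values rest on the spread among these arrays, which may be technical. The series design names the Affymetrix Mouse Genome 430A 2.0 array, whereas the labels' protocols describe another maker's labelling method and RNA from cultured cells.

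Every value below is a log2 signal relative to the median of the 4 arrays for that gene's probe sets, or a difference of such values. The log base, which no source used here gives, was taken as 2. The centring removes the level of each gene, so the data cannot show how strongly a gene was expressed, whether a macrophage marker was above background, or which of 2 genes was higher. It also places the middle pair of the 4 values of a probe set at equal distances on both sides of 0. The number of arrays limits the precision. In whole liver, fewer cells of a type and less RNA per cell cannot be told apart.

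One control array stood apart. When 2 arrays were subtracted gene by gene, the standard deviation was 0.384 within siControl and 0.249 within siOrm, and it was 0.341 to 0.428 between siControl replicate 2 and the siOrm arrays. In that array 137 genes lay above 1, against 0 to 12 genes in each of the others. Orm1 itself stood at 0.02 and 0.19 in siControl and at -0.24 and -0.02 in siOrm, a difference of -0.23 (SE 0.15; limma, adjusted p = 0.994). The paralog Orm2 stood at 0.16 and 0.90 against -0.94 and -0.16, and Orm3 at 0.15 and 1.20 against -0.31 and -0.15. They differed by -1.08 (SE 0.34) and -0.91 (SE 0.34), also with adjusted p = 0.994. Without siControl replicate 2 these were -0.71 and -0.39, and Orm2 was -0.69 without siOrm replicate 1. Orm3 passed without siControl replicate 1, at -1.43 (limma, adjusted p = 0.0188). The target gene thus checks the labels only weakly, and the 2 groups are named by their labels throughout.

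No macrophage gene passed the test between siOrm and siControl livers. Of the 9 genes, 0 had an adjusted p under 0.05 (limma), as did 0% of all 10923 genes. At an unadjusted p under 0.05, 2 of the 9 were lower in siOrm, Marco and Chil3, and 0 were higher, where the background was 2.58% lower and 2.18% higher. The median difference of the 9 genes was -0.31, and 7 lay below 0. Over all 10923 genes the median was 0.01, and 5217 lay below 0. The median of the 9 was 0.22 without siControl replicate 2, when siControl replicate 1 alone stands for its group. The larger feature of these genes was the distance between the control arrays. Their median gap within the siControl pair was 1.17, against 0.20 over all genes, and within the siOrm pair it was 0.20, against 0.13.

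**Figure D1:**
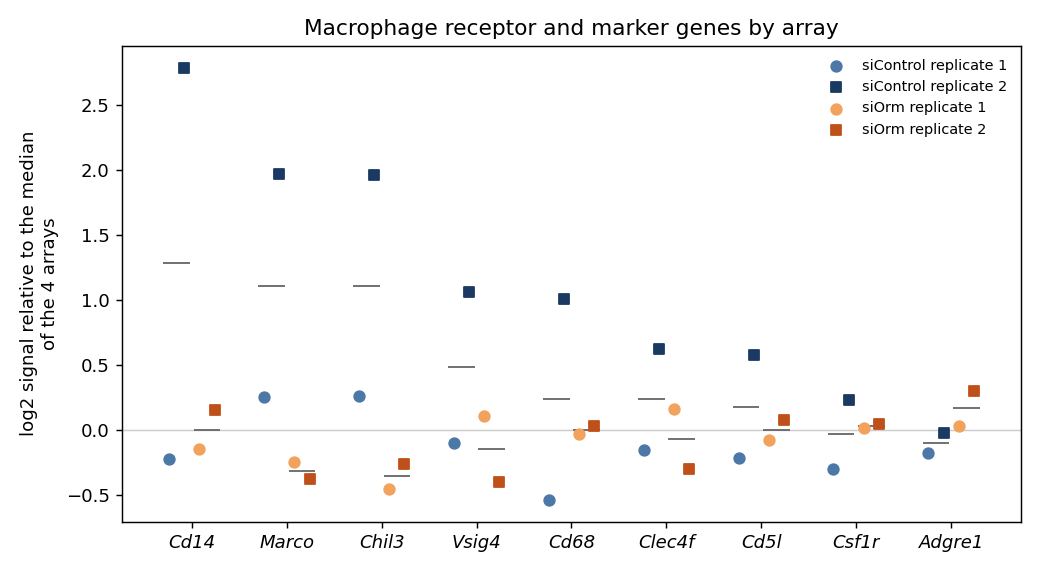
Values of the 9 measured genes in each array, as log2 signal relative to the median of the 4 arrays; each point is 1 array and the short grey lines are the means of the 2 arrays of a group. In siControl replicate 2 (dark squares) values run from -0.03 for Adgre1 to 2.79 for Cd14, while the 2 siOrm arrays stay between -0.46 and 0.30.

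All 9 genes were higher in siControl replicate 2 than in siControl replicate 1, where 42.9% of all genes were. For 8 of the 9, Adgre1 being the exception, siControl replicate 2 was the highest of the 4 arrays, beside 28.1% of all genes. It exceeded every other array by 0.5 or more for 5 of them, Cd14, Marco, Chil3, Vsig4 and Cd68, beside 4.44% of all genes; that margin was chosen after the values were seen. The 9 values in siControl replicate 1 ran from -0.54 to 0.26, and the values in siOrm from -0.46 to 0.30. At the other end, siControl replicate 1 was the lowest array for 5 of the 9, Cd14, Adgre1, Cd68, Csf1r and Cd5l, beside 20.6% of all genes. These are values of single arrays, with no test.

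**Figure D2:**
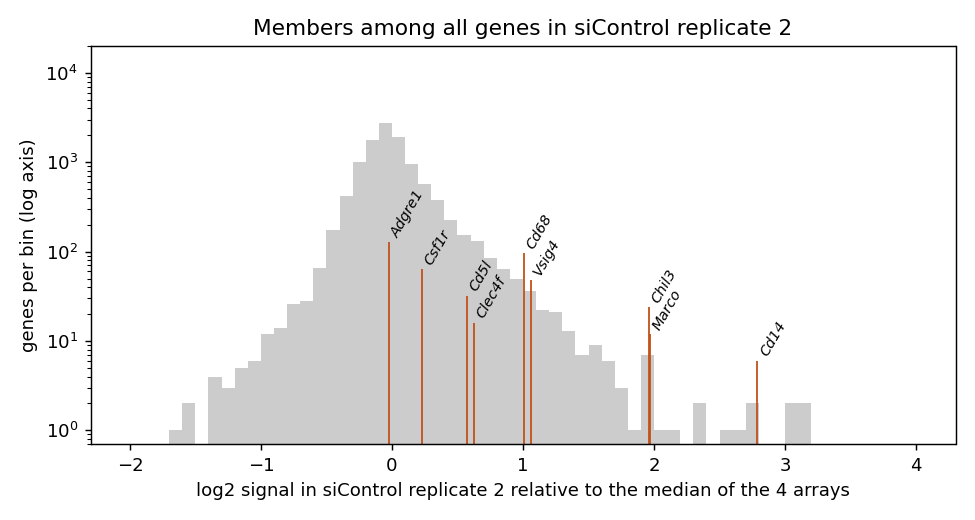
Number of genes per 0.1-wide bin (log axis) by their log2 signal in siControl replicate 2 relative to the median of the 4 arrays, with each measured macrophage gene marked by a line whose height has no meaning. Cd14, Marco and Chil3 lie in the upper tail and rank 5, 15 and 16 among 10923 genes, while Adgre1 at -0.03 lies in the middle of the distribution.

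Recognition of microbial products is the task of Cd14 and Marco. Cd14 encodes the co-receptor that hands lipopolysaccharide to TLR4, and it is an inducible gene of macrophages, neutrophils and, during an acute phase response, hepatocytes. The control arrays gave -0.22 and 2.79, and the siOrm arrays gave -0.15 and 0.15. Only siControl replicate 2 was high, and siControl replicate 1 was the lowest of the 4, so the groups overlapped. In base 2, siControl replicate 2 was 7.28-fold above the mean of the other 3 arrays, and the gap of 3.01 within the siControl pair was the 4th widest of all genes. The group difference was -1.28 (SE 0.91, 95% interval from -3.56 to 0.99; limma, adjusted p = 0.994). It turned to 0.22 without siControl replicate 2.

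Marco encodes a collagen-like scavenger receptor that binds bacteria and is found on Kupffer cells and on macrophages of the splenic marginal zone. It stood at 0.25 and 1.97 in siControl and at -0.25 and -0.38 in siOrm. The 2 siOrm arrays were the lowest of the 4, and most of the distance came from siControl replicate 2. The difference was -1.43 (SE 0.53, 95% interval from -2.74 to -0.11; limma, unadjusted p = 0.0383, adjusted p = 0.994), and -0.57 without siControl replicate 2.

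Chil3 encodes Ym1, a secreted chitinase-like lectin made by alternatively activated macrophages and by monocytes and neutrophils. It stood at 0.26 and 1.96 in siControl, next to Marco, and at -0.46 and -0.26 in siOrm. Here too the groups did not overlap. The difference was -1.47 (SE 0.53, 95% interval from -2.78 to -0.16; limma, unadjusted p = 0.0336, adjusted p = 0.994), and -0.62 without siControl replicate 2. Such a separation downwards was seen for 2 of the 9 genes, Marco and Chil3, and for 15.3% of all genes. Chil3 has near-identical neighbours in the mouse genome, and the single probe set was not checked for signal shared with them.

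Complement and lysosomal markers came next. Vsig4 encodes the complement receptor CRIg, through which Kupffer cells capture C3b-coated bacteria, and it is largely restricted to resident macrophages. It stood at -0.10 and 1.06 in siControl and at 0.10 and -0.41 in siOrm. The groups overlapped, since siOrm replicate 1 lay above siControl replicate 1. The difference was -0.63 (SE 0.40; limma, adjusted p = 0.994), and it was -0.05 without siControl replicate 2. Cd68 encodes a glycoprotein of macrophage lysosomes. It stood at -0.54 and 1.01 in siControl and at -0.03 and 0.03 in siOrm, so that the 2 control arrays enclosed the siOrm arrays from both sides. Its difference of -0.23 (SE 0.48; limma, adjusted p = 0.999) turned to 0.54 without siControl replicate 2.

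Clec4f and Cd5l are genes of resident Kupffer cells. Clec4f encodes a C-type lectin that in the mouse is regarded as specific to Kupffer cells, and Cd5l a secreted protein that protects macrophages from apoptosis. Clec4f stood at -0.16 and 0.62 in siControl and at 0.16 and -0.30 in siOrm, and Cd5l at -0.22 and 0.57 in siControl and at -0.08 and 0.08 in siOrm. For both genes siControl replicate 2 was the highest array, by 0.47 and 0.49, and the groups overlapped. In siControl replicate 2 Clec4f ranked 429 and Cd5l 512 among all genes, behind Vsig4 at 115 and Cd68 at 137. The differences between groups were -0.31 for Clec4f (SE 0.30; limma, adjusted p = 0.996) and -0.17 for Cd5l (SE 0.27; limma, adjusted p = 0.999). Without siControl replicate 2 they were 0.09 and 0.22.

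Csf1r and Adgre1 had the lowest values in siControl replicate 2. Csf1r encodes the receptor for CSF1 and IL-34, on whose signal macrophages depend for survival. Averaged over its 3 probe sets it stood at -0.30 and 0.23 in siControl and at 0.02 and 0.04 in siOrm, with a difference of 0.06 (SE 0.20; limma, adjusted p = 0.999). The probe sets were not alike. Those named 1419872_at and 1419873_s_at stood at -0.38 and -0.44 in siControl replicate 1 and reached 0.46 and 0.32 in replicate 2 of that group. The probe set 1423593_a_at stayed between -0.09 and 0.09 in all 4 arrays, with both siOrm arrays above both siControl arrays. The sign of the Csf1r difference depended on this choice, since it was -0.04 for 1419872_at alone.

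Adgre1 encodes the adhesion receptor by which mouse macrophages are commonly stained. It stood at -0.18 and -0.03 in siControl and at 0.03 and 0.30 in siOrm. It was the 1 gene of the 9 with both siOrm arrays above both siControl arrays, beside 17.0% of all genes, and the 1 gene whose highest array was not siControl replicate 2. The difference was 0.27 (SE 0.16, 95% interval from -0.12 to 0.66; limma, adjusted p = 0.994), and 0.34 without siControl replicate 2. A single probe set measured it, over a range of 0.48 between arrays, the smallest among these genes, whose ranges reached 3.01 with a median of 1.47. The median range over all genes was 0.34.

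**Figure D3:**
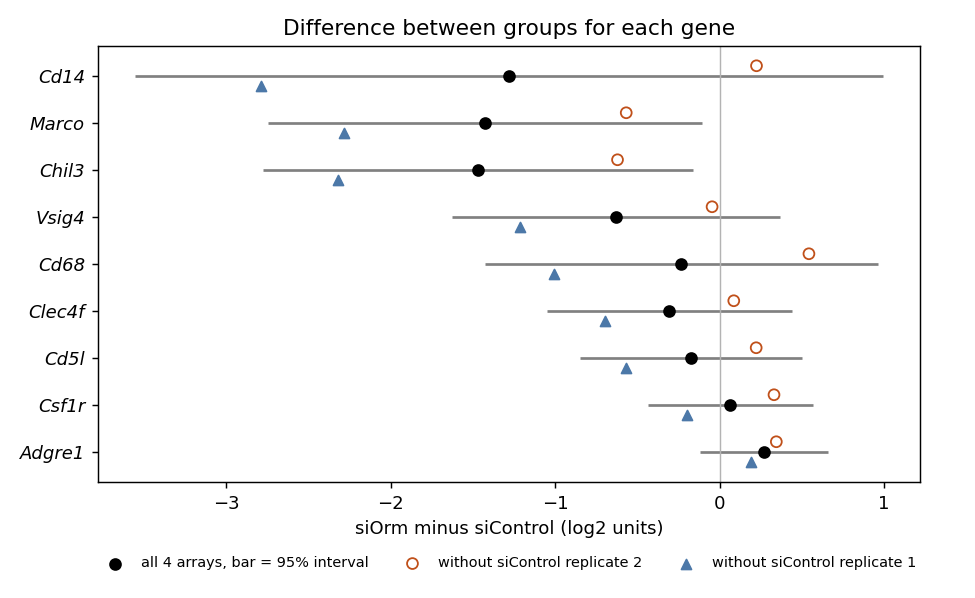
Difference between siOrm and siControl for each gene in log2 units; filled circles are estimates from all 4 arrays with 95% intervals from limma, open circles leave out siControl replicate 2 and triangles leave out siControl replicate 1. Cd14 moves from -2.79 to 0.22 depending on the control array left out, while Adgre1 keeps its place at 0.19 to 0.34.

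The test outcome depended on which control array stood for its group. Without siControl replicate 1, when siControl replicate 2 alone was set against the siOrm arrays, 4 of 9 genes passed (limma), all lower in siOrm, beside 2.10% of all genes. These were Cd14 at -2.79, Marco at -2.29 and Chil3 at -2.32, each with adjusted p = 0.00481, and Cd68 at -1.01 with adjusted p = 0.0341. That fit takes the spread of the single control array from the siOrm pair. Without siControl replicate 2, 0 of 9 passed, and 4 of the 9, Cd14, Cd68, Clec4f and Cd5l, changed sign. Quantile normalization, which gives each array the same spread of values, reduced siControl replicate 2 to 1.49 for Cd14, 1.03 for Marco, 1.02 for Chil3, 0.57 for Vsig4 and 0.54 for Cd68. That array remained the highest for these 5 genes. The same step moved siOrm replicate 2 from -0.38 to -0.67 for Marco and from -0.26 to -0.45 for Chil3. It moved siOrm replicate 1 the other way, from -0.25 to -0.20 and from -0.46 to -0.35. The group differences, which hold all these shifts, became -0.57 for Cd14, -1.11 for Marco and -1.08 for Chil3.

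The 300 bases around the start site are shown for genes that stood high in siControl replicate 2 and had an entry taken from the RefSeq promoter table of the GRCm38.p6 build. Of the 10 genes, 7 had an entry that was taken (Marco, Chil3, Vsig4, Cd68, Clec4f, Cd5l and Timd4). Entries on 1 chromosome were left out for the listed genes, though not in the counts over all promoters. The absence of Cd14 and Csf1r here therefore does not show that they lack an entry. Each sequence runs from 250 bases before to 50 after the annotated start, 5′ to 3′ on the strand of the gene. Capitals mark GAGGAA, or TTCCTC for the opposite strand, the core that PU.1, the master transcription factor of macrophages, is known to bind. The windows are chr1:120504975-120505274 (- strand) for Marco, chr3:106167515-106167814 (- strand) for Chil3, chrX:96293389-96293688 (- strand) for Vsig4 and chr11:69666121-69666420 (- strand) for Cd68.
Marco: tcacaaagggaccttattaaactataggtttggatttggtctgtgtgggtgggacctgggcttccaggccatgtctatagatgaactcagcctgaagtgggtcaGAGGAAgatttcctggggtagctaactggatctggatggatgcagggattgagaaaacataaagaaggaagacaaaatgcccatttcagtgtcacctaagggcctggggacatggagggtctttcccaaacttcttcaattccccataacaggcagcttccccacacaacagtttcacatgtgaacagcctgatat
Chil3: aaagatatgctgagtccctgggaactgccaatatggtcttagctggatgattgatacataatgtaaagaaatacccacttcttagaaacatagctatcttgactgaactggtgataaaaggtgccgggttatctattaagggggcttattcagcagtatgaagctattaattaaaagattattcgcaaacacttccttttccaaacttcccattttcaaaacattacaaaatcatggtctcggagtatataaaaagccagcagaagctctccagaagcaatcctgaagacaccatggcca
Vsig4: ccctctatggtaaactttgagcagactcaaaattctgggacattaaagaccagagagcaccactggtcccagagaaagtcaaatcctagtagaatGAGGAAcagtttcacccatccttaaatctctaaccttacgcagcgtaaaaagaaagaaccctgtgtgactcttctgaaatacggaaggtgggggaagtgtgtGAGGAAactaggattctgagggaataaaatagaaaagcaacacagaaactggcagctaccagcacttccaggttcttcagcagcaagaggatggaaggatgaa
Cd68: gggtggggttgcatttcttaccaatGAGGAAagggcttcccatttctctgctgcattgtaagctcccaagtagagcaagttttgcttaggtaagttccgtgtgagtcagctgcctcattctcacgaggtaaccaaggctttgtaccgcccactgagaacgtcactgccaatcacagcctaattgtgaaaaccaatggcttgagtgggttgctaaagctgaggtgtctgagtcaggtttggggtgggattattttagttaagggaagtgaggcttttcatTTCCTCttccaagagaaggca
On either strand GAGGAA occurred in 4 of the 7 promoters (Marco, Vsig4, Cd68 and Cd5l), and in 28.3% of 32851 promoters of the same length. Vsig4 and Cd68 held 2 copies each, and Chil3, Clec4f and Timd4 held none. A MAF half-site, TGCTGA, occurred in 5 of 7 and in 19.5% of all promoters. The AP-1 site TGACTCA, found in Cd68, occurred in 1 of 7 and in 5.2% of all, and the C/EBP site TTGCNNAA, also in Cd68, in 1 of 7 and in 10.8% of all. Both strands were searched and the motifs do not contain one another. These are letter matches in a short window and say nothing about binding in these livers.

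A further list held 18 other genes of Kupffer cells, of which 17 were measured and 0 passed the test (limma). Among them 2 were separated downwards and 2 upwards, beside 15.3% and 17.0% of all genes. The median difference was 0.02, or 0.29 without siControl replicate 2. Their mean was -0.17 and 0.25 in siControl and -0.14 and 0.00 in siOrm. Of the 17, 12 were highest in siControl replicate 2, beside 28.1% of all genes. Cd163, the receptor for haptoglobin-bound haemoglobin, stood at -0.09 and 0.99 in siControl and at 0.09 and -0.77 in siOrm, a pattern near that of Vsig4. C1qa, a subunit of complement C1q that macrophages secrete, stood at -0.48 and 0.45 against 0.06 and -0.06, like Cd68 with the control arrays on both sides. Hpgd, which degrades prostaglandins, stood at -0.39 and -0.12 against 0.26 and 0.17, so it was separated upwards as Adgre1 was. Id3, a factor of Kupffer cell identity that other cells also express, did not follow siControl replicate 2 and was lowest in siOrm replicate 1, at -2.09, with 1.24 and 0.03 in siControl and -0.03 in siOrm replicate 2.

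Most measured genes of monocytes and inflammatory macrophages were also higher in siControl replicate 2. Of 18 listed, 12 were measured, 0 passed (limma), and 9 of 12 were highest in that array, with means for the list of -0.22 and 0.42 in siControl, and -0.09 and 0.06 in siOrm. Lyz2, the lysozyme of myeloid cells, stood at -0.52 and 1.15 against -0.25 and 0.25. Lgals3, which encodes galectin-3, stood at -0.24 and 1.26 against -0.29 and 0.24. Neither gene separated the groups, and the median difference of the list was -0.23, or 0.21 without siControl replicate 2. Trem2 went the other way, with its lowest value in siControl replicate 2, at 0.03 and -0.23 in siControl against 0.50 and -0.03 in siOrm.

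The machinery that works with Cd14 did not share its pattern as a whole. Of 16 endotoxin recognition genes 11 were measured and 0 passed (limma). Of the 11, 4 were highest in siControl replicate 2, beside 28.1% of all genes. Means for the list were 0.08 and 0.15 against -0.08 and 0.00. Tlr2, a receptor for bacterial lipoproteins that also uses Cd14, did stand high in that array, at 0.07 and 1.48 against -0.17 and -0.07. Its difference was -0.90 (SE 0.44; limma, adjusted p = 0.994) and -0.19 without siControl replicate 2. Lbp, the lipopolysaccharide-binding protein of hepatocytes, was by contrast highest in siControl replicate 1, at 0.65 and -0.29 against -0.08 and 0.08. Tirap, an adaptor of TLR2 and TLR4, stood at 0.31 and 0.11 against -0.24 and -0.11, a difference of -0.38 (SE 0.14; limma, adjusted p = 0.994).

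Among scavenger receptors, the family of Marco, 12 of 14 were measured and 0 passed (limma). Of the 12, 1 was separated downwards and 1 upwards, beside 15.3% and 17.0% of all genes. Their median difference was 0.04, or 0.09 without siControl replicate 2. The one separated downwards was Scara5, a ferritin receptor that is not a macrophage marker, at 0.51 and 0.84 against -0.51 and -0.53 (difference -1.19, SE 0.16; limma, adjusted p = 0.857). The difference was -1.02 without siControl replicate 2, and -2.48 for the probe set of larger range alone, so its 2 probe sets disagreed. Cd36, a fatty acid and lipoprotein receptor, was lowest in siControl replicate 1, at -1.16 and 0.02 against 0.30 and -0.02.

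The CSF1 axis and macrophage transcription factors, 17 of 18 measured, had a median difference of -0.02, or 0.08 without siControl replicate 2. Of the 17, 7 were highest in siControl replicate 2, beside 28.1% of all genes, and 0 passed the test (limma). Zeb2, a factor of macrophage identity that other cells share, stood highest among them in that array, with -0.37 and 1.76 in siControl against -0.08 and 0.08 in siOrm. Phagocytic receptors and their adaptors, 18 of 20 measured, had a median difference of -0.03, or 0.20 without siControl replicate 2. Of the 18, 12 were highest in siControl replicate 2, beside 28.1% of all genes, and 0 passed the test (limma). Mfge8, a bridge between dying cells and phagocytes, stood at -0.49 and 1.59 against -0.01 and 0.01. Tyrobp, the adaptor of many myeloid receptors, stood at -0.56 and 0.53 against 0.03 and -0.03. Gas6, the ligand of the receptors Axl and Mertk, stood at 0.12 and 0.30 against -0.56 and -0.12, and was separated downwards (difference -0.55, SE 0.19; limma, adjusted p = 0.994; -0.32 without siOrm replicate 1).

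Lists of markers of other cell types differed in whether they stood high in the same array. Over all genes, 28.1% were highest there. Neutrophil markers, 12 of 14 measured, had means of 0.12 and 0.48 in siControl and -0.09 and -0.06 in siOrm, but 5 of 12 were highest in siControl replicate 2, where the median was 0.03 against 0.10 in siControl replicate 1. The high ones were S100a8 and S100a9, which encode the subunits of calprotectin, at 2.75 and 1.95 there, and Lcn2, a siderophore-binding protein also made by hepatocytes, at 1.26. Sinusoidal endothelial markers had means of -0.17 and 0.31 against -0.04 and 0.01, with 10 of 12 highest in siControl replicate 2, and stellate cell markers -0.14 and 0.36 against -0.05 and 0.06, with 7 of 11. Hepatocyte markers lay at 0.00 and -0.07 against 0.05 and 0.02, with 1 of 9 highest in that array. T and NK cell markers were lowest there, at -0.12, with 0 of 8 highest, and so were dendritic cell markers, at -0.16, with 0 of 6. B and plasma cell markers stood at -0.03, with 1 of 7. Because of the centring it cannot be seen which markers are near background, and the part of these cell types in the values of the macrophage genes was not tested.

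**Figure D4:**
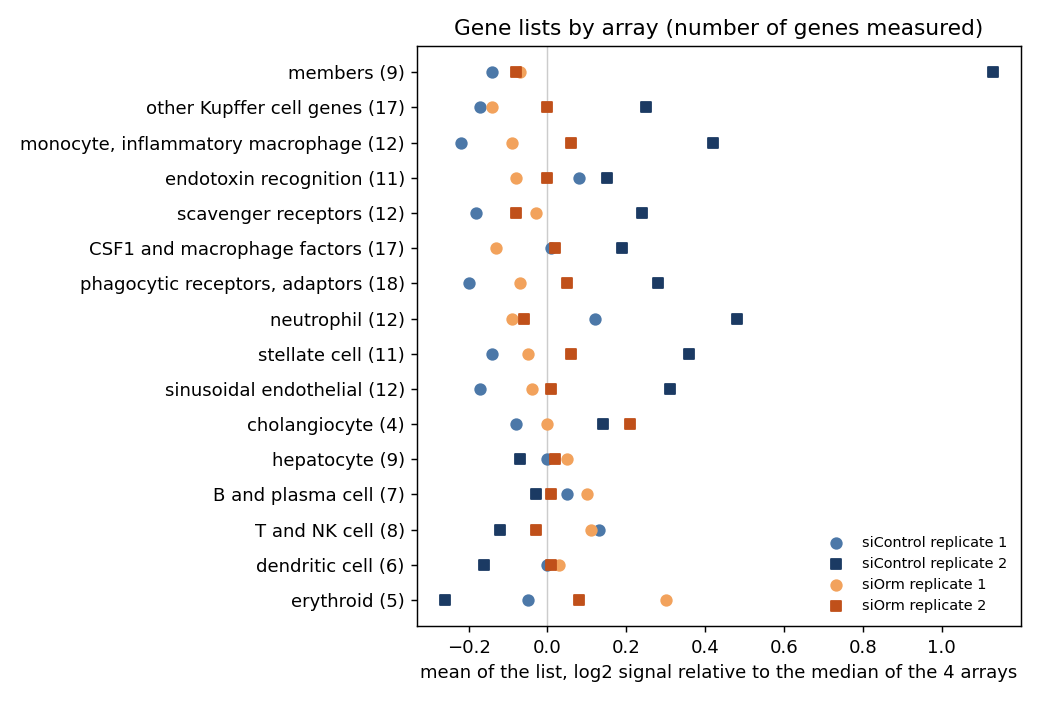
Mean of each gene list in each array, as log2 signal relative to the median of the 4 arrays, with the number of genes measured in brackets. In siControl replicate 2 the 9 macrophage genes lie at 1.13, against -0.14 to -0.07 elsewhere, and the means for monocytes, stellate and endothelial cells are also highest in that array, at 0.42, 0.36 and 0.31. The neutrophil mean there is 0.48 with a median of 0.03.

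The genes whose 4 values came nearest to the mean of the 9, by root mean square difference over the 4 arrays, were Frk at 0.048, Ptgr1 at 0.069, Ly6d at 0.07, Chd4 at 0.071 and 2610507B11Rik at 0.073. The mean of the 9 was -0.14 and 1.13 in siControl and -0.07 and -0.08 in siOrm, and Frk, which encodes a tyrosine kinase of the Src family, stood at -0.19 and 1.15 against -0.03 and -0.02. Of these 5 genes 0 belong to any list used here.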

How the data were processed

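Gene expression in 4 liver RNA samples was measured on single-colour arrays. Per the labels, 2 belong to siControl and 2 to siOrm, with replicate numbers from the titles. The deposited table holds 18852 probe sets as log2 signal from which the authors' file has the median of the 4 arrays removed per probe set (row medians differ from 0 by at most 4.8e-07). The software is not given in the sources used here, nor is the normalization between arrays, and base 2 is an assumption. Without levels, no filter on dim probe sets was possible.

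Of the probe sets 17209 had 1 gene symbol in the platform annotation, 564 several and 1044 none, and 35 were control probe sets. Genes were the mean of their probe sets. Groups were compared with limma 3.58.1 in R 4.3.3 (lmFit, eBayes, constant variance prior with 3.6 degrees of freedom beside 2 residual ones), two-sided, with p-values adjusted over all genes by Benjamini-Hochberg and called under 0.05. The genes, the lists and the alternatives were chosen with earlier results of these data known, so lists are described by counts and medians without a test. Named genes were the 10 listed, the orosomucoid genes, up to 3 per other list with the largest difference or range, and the 5 nearest by pattern. Alternatives changed the prior, the scaling, the probe sets and the replicates.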

Additional observations from a re-analysis of the deposited data

How the results depend on the processing

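With a variance prior that follows the mean value, 11 genes passed instead of 0, none of them among the 9 (limma). Because the values are centred, that mean is not a level of signal. Leaving out 1 array gave 0 to 229 genes past the test, 0 to 4 of the 9 macrophage genes past it, and a median difference of the 9 between -1.01 and 0.22; the high counts and the low median came without siControl replicate 1. Over these settings the difference ran from -2.79 to 0.22 for Cd14, -0.70 to 0.09 for Clec4f, -1.01 to 0.54 for Cd68, -0.57 to 0.22 for Cd5l and -0.20 to 0.33 for Csf1r. It kept its sign for Marco (-2.29 to -0.57), Chil3 (-2.32 to -0.62), Vsig4 (-1.21 to -0.05) and Adgre1 (0.13 to 0.40). The other genes named were followed over the same settings, except Trem2 and the 5 nearest by pattern. Of those followed, the sign changed for Lyz2 (-1.15 to 0.52), Lgals3 (-1.29 to 0.21), Zeb2 (-1.76 to 0.37), Mfge8 (-1.59 to 0.49), C1qa (-0.45 to 0.48), Tyrobp (-0.53 to 0.56) and Lbp (-0.65 to 0.29). Lyz2 also turned to 0.06 after quantile normalization. Csf1r turned to -0.04 with the probe set of largest range and without _s_at, _x_at and _a_at probe sets, a setting that leaves Adgre1 unmeasured. Subtracting array medians changed no sign. The replicate numbers are shared between the groups, but nothing says that they pair the samples: the deviations of the arrays numbered 1 correlated at 0.132 over genes, and with the replicate block 0 genes passed, 0 of them among the 9.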

Other observations

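Of 10 red cell precursor genes listed, 5 were measured. All 5 had a mean above siControl in siOrm, as did 5700 of all 10923 genes. Separated upwards were 3 of the 5, beside 17.0% of all genes. Of the 5, 0 passed the test (limma, adjusted p of at least 0.994 for the 3 with the largest differences). Their mean was -0.05 and -0.26 in siControl and 0.30 and 0.08 in siOrm, with a median difference of 0.49, or 0.31 without siControl replicate 2. Cholangiocyte markers, 4 of 8 measured, had means of -0.08 and 0.14 in siControl and 0.00 and 0.21 in siOrm. Of the 4, 2 were separated upwards and 1 downwards, beside 17.0% and 15.3% of all genes, and 0 passed the test (limma).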
